A study of Mus musculus with 16 samples.

Results

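The 9 genes described here encode components of the complement system and receptors for its cleavage products: the C1q chains C1qa, C1qb and C1qc, the central components C4b and C3, factor B (Cfb), properdin (Cfp) and the receptors C3ar1 and C5ar1. They were taken by symbol from the 32285 genes listed in each of 8 single-cell matrices, and all 9 were found. The cells came from subcutaneous B16 melanomas, tumours of a mouse melanoma line, in C57BL/6J mice, and were enriched on CD45 magnetic beads (CD45 marks blood-derived cells). Each mouse received 1000000 Bro4.1 B16 cells, either control cells or cells without B2m, the light chain of MHC class I. From day 6, with further doses on days 9 and 12, mice were given 100 µg of an anti-CD40 antibody, which stimulates antigen-presenting cells, or the matching rat IgG2a isotype antibody, both given intraperitoneally, and tumours were taken on day 14. There were 5 mice in the control isotype group, 2 in control CD40, 5 in B2m-null isotype and 4 in B2m-null CD40. Here control and B2m-null name the implanted tumour cells, as the design text has it, although the sample labels give the genotype as that of the mouse.

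Complement is a cascade of plasma proteins that marks targets and calls in phagocytes. C1q binds antibody complexes or dying cells and starts the classical route through C4 and C2, factor B and properdin build and stabilise the convertase of the alternative route, and both routes cleave C3 into C3b, which tags surfaces, and C3a, the ligand of C3ar1. Cleavage of C5 further on releases C5a, the ligand of C5ar1. Liver makes most plasma complement, while macrophages are known as a main source of C1q in tissue, and fibroblasts and myeloid cells also transcribe C3 and factor B.

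In GRCm38 the C1q genes form a cluster on the minus strand of chromosome 4: C1qb at 136880129 to 136886187, C1qc at 136889804 to 136893065 and C1qa at 136895917 to 136898803. Cfb lies on chromosome 17 at 34856374 to 34862518 and C4b at 34728380 to 34743882, in the MHC region, with C3 farther along the same chromosome at 57203970 to 57228136. Cfp is on X at 20925454 to 20931555, C3ar1 on chromosome 6 at 122847138 to 122856161 and C5ar1 on chromosome 7 at 16246743 to 16259540, and all 9 are on the minus strand. C4b has a near-identical neighbour, C4a, whose mean level was at most 1.73 counts per 1000000 in any cell class, and how reads were divided between the pair is uncertain. Gm20547 overlaps Cfb on the same strand over 6107 bases of the annotation and has no row in the deposited matrices. How reads over that stretch were assigned is also uncertain.

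The RefSeq promoter table held 6 of the 9 members, and 3 promoters that carried a searched motif are shown because C1qb and C1qc varied together across cell classes and C3 had the largest CD40 change of the members in macrophages. Each run is the 250 bases before the start in RefSeq's table, 5′ to 3′ on the gene's strand, in GRCm38.p6, with the motif in capitals: chr4:136886201-136886450 for C1qb, chr4:136892915-136893164 for C1qc and chr17:57228137-57228386 for C3, all on the minus strand. The gene bounds above are from GENCODE, and the RefSeq start of C1qc lies inside them, so the run for C1qc begins before the GENCODE start and ends within the gene.
C1qb: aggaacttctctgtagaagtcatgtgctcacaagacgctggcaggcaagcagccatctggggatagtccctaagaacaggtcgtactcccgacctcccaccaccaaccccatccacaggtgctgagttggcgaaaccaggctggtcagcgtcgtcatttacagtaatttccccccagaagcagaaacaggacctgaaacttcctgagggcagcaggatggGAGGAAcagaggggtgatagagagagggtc
C1qc: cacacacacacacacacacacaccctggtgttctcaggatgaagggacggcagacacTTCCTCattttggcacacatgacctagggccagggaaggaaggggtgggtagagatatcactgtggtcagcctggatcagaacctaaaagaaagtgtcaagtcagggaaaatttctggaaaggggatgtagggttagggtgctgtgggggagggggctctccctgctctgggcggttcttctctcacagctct
C3: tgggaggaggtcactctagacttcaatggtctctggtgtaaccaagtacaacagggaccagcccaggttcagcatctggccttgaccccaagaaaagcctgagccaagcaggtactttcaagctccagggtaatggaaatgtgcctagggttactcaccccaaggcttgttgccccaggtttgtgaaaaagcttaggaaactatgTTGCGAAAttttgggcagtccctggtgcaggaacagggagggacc
GAGGAA, the core read by PU.1, a myeloid transcription factor, occurred once in C1qb, 30 to 25 bases before the RefSeq start. In C1qc it occurred on the other strand, as TTCCTC, 193 to 188 bases before the RefSeq start and nearer to the GENCODE start. TTGCNNAA, letters of a C/EBP site, occurred once in C3, 45 to 38 bases before the RefSeq start. Both strands were searched, and of 32851 promoters of this length 23.3% held GAGGAA and 9.56% held TTGCNNAA. The STAT-type letters TTCNNNGAA (7.02% of promoters), a kappa B motif (0.356%) and an interferon response motif (2.98%) were in none of the 6. These matches describe letters in this window and nothing about binding.

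Values are counts of unique molecular identifiers (UMIs, one per captured transcript) summed over a mouse's cells of one class and given as counts per 1000000 of that sum (CPM). The assay reads 3′ ends, so CPM is not divided by gene length. The 8 lanes held between 41512133 and 78519007 UMIs, with a median of 1774.5 to 4776 UMIs per cell. B2m in melanoma-like cells was 197 to 495 CPM in the 4 B2m-null lanes and 1101 to 2128 in the 4 control lanes. Of the barcodes, 1649 occurred in 2 or more lanes, and no pair of lanes shared more than 92. Each group ran on its own lanes, and control CD40 was a single pool run on 2 technical lanes, so a group and its lanes cannot be told apart beyond the spread between mice and pools. Nothing in the labels says that pools were raised separately, and p-values measure the spread between these mice. Of the kept cells, 3544 of 11259 in B2m-null isotype replicate 1 and 6660 of 10457 in B2m-null CD40 replicate 1 were assigned to a mouse, against 12030 of 13684 or a larger share in each other lane, and cells with no mouse entered no value per mouse. Classes came from clusters computed without any complement gene and were named from marker lists: macrophage-like cells numbered 32655 with a mouse assigned, monocyte-like 3771, and dendritic-like cells 1309 (cDC1), 1402 (cDC2) and 1581 (mature DC). They are called macrophages, monocytes and dendritic cells from here, names rebuilt here from markers, which may draw class borders elsewhere than the study did.

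Across 15 classes the members fell into distinct patterns. Each of the C1q chains, the collagen-like subunits that assemble into C1q, was highest in macrophages, at 2060.1 ± 372 CPM for C1qa, 2360.5 ± 474 for C1qb and 1542 ± 291 for C1qc (SD, n = 16 mice). Next came neutrophils at 755 ± 319, 984 ± 429 and 600.1 ± 259.8 CPM (n = 12), and T cells were at 33.8, 50.9 and 29.4 CPM. The ranges of C1qa in macrophages, 1459.7 to 2767 CPM, and in neutrophils, 129.5 to 1198, did not overlap, whereas neutrophils, monocytes (407 ± 169.6) and mature dendritic cells (349.6 ± 184) overlapped. The chains kept close to one ratio: within a mouse's macrophages C1qb was 1.13 times C1qa (median of 16, range 0.977 to 1.29) and C1qc was 0.742 times C1qa (0.700 to 0.810). The same ratios had medians of 1.22 and 0.715 in fibroblasts, 1.23 and 0.754 in cDC1, 1.55 and 0.873 in T cells and 1.69 and 0.681 in monocytes. C1q in classes other than macrophages may include free RNA or doublets in the droplets, whose part in these levels was not tested. Median depth was 3940 UMIs per macrophage, 1933 per monocyte, 1090 per neutrophil and 1600 per T cell.

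C3 and C4b, the central components, and Cfb were highest in the fibroblast class, a stromal remainder after CD45 enrichment that was summed per lane. C3 was 1330.3 ± 402 CPM there (SD, n = 8 lanes), against 256 ± 74.8 in monocytes, 214 ± 97.0 in neutrophils and 105 ± 81.1 in macrophages, and the lowest fibroblast lane, 680.3, was above the highest monocyte value, 367. C4b was 213 ± 66.0 in fibroblasts and 33.4 ± 23.3 in macrophages, with ranges of 122 to 312 and 14.0 to 116. Cfb was 391 ± 143 in fibroblasts, 154 ± 80.4 in monocytes and 117 ± 49.3 in macrophages, where the ranges of monocytes (35.9 to 324) and macrophages (45.0 to 199.8) overlapped. Cfp, which stabilises the alternative convertase, led instead in cDC2 at 369.9 ± 100.2 CPM (n = 15), followed by macrophages at 270.1 ± 54.1 and monocytes at 216 ± 58.5, with overlapping ranges, while cDC1 and mature dendritic cells were at means of 100.1 and 85.7.

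The receptors were myeloid. C3ar1, the C3a receptor, was 422 ± 65.7 CPM in macrophages, 200.1 ± 76.0 in monocytes and 183 ± 93.7 in neutrophils. C5ar1, the C5a receptor, was 389 ± 96.2 in neutrophils and 305 ± 57.0 in macrophages, whose ranges overlapped (173 to 507 and 199 to 406), and 177 ± 59.1 in monocytes. Both were under 10 CPM in T cells, at 8.05 and 5.04. These class levels are descriptions, since the classes were defined on the same cells.

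**Figure D1:**
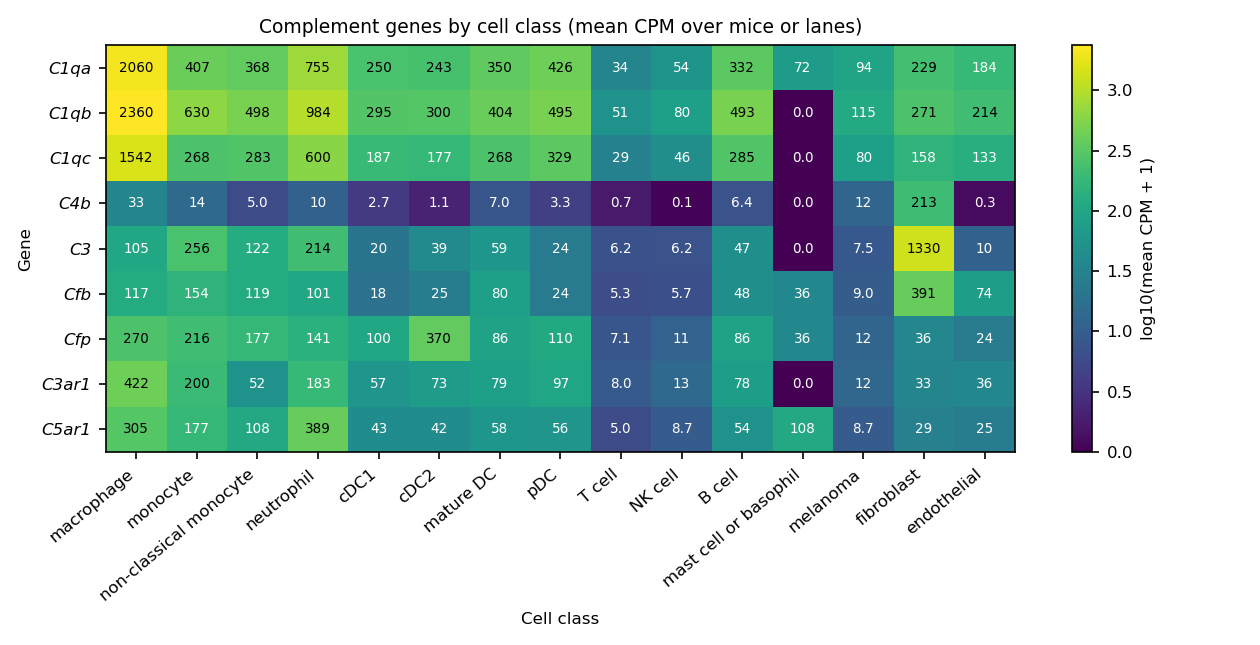
Mean level of each member in 15 cell classes, with colours on a log10(mean CPM + 1) scale and the mean CPM printed in each cell. Rows are the 9 genes and columns the classes. Levels were averaged over mice or, for fibroblasts, endothelial cells, melanoma cells and the mast cell or basophil class, over lanes. The C1q chains and C3ar1 are highest in macrophages, C3, C4b and Cfb in fibroblasts, Cfp in cDC2 and C5ar1 in neutrophils.

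By Pearson correlation of log2(CPM + 1) over the 15 classes, the genes most like C1qc and C1qb were Hmox1 (r = 0.99 for both) and Ms4a7 (0.99 and 0.98). C3 was most like Pla2g4a and Vcan (0.93 for both), and Cfb was most like Dram1 (0.95). C3ar1 was most like F13a1 and Mrc1 (0.99 for both), Cfp most like Ms4a6c and Spi1 (0.96 for both), C5ar1 most like Hk3 (0.96) and C4b most like Saa3 (0.91). C1qa was most like Plin2 (0.96), Ctsb and Wfdc17 (0.95 for both). C1qb and C1qc had r = 0.997 with each other, while C1qa had 0.77 with C1qb and 0.80 with C1qc, and C3 had 0.83 with C4b and 0.77 with Cfb. The classes share libraries and differ in depth, and these values are descriptions.

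C3 in macrophages was higher under anti-CD40 in both kinds of tumour. In control tumours the 5 isotype mice had 39.8, 52.4, 54.6, 70.1 and 79.1 CPM and the 2 CD40 mice 141 and 173. In B2m-null tumours the 5 isotype mice had 23.9, 24.9, 35.1, 44.8 and 79.0 CPM and the 4 CD40 mice 152, 179, 229 and 295. Every CD40 mouse was above every isotype mouse in both tumour kinds. With edgeR's quasi-likelihood test and Benjamini-Hochberg adjustment over all genes tested, C3 rose by 1.57 ± 0.35 on the log2 scale in control tumours (2.97-fold, adjusted p = 0.0037) and by 2.54 ± 0.32 in B2m-null tumours (5.81-fold, adjusted p = 3.5e-05). The difference between these effects, 0.97 ± 0.49 (adjusted p = 0.18), did not pass. Without control CD40 mouse 2 the rise in control tumours was 1.35 with an adjusted p of 0.066, and the B2m-null rise was called under every pool or mouse left out (2.22 to 3.01).

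Cfb, which supplies the protease of the alternative convertase, behaved differently by tumour. Macrophages of control tumours had 83.2, 93.1, 113, 118 and 119 CPM under isotype and 103 and 162 under CD40, which overlapped. Macrophages of B2m-null tumours had 45.0, 48.9, 62.0, 67.5 and 127 CPM under isotype and 161, 176, 186 and 199.8 under CD40, with no overlap. Cfb rose by 1.72 ± 0.21 in B2m-null tumours (3.30-fold, edgeR adjusted p = 3.1e-05), while in control tumours its change of 0.49 ± 0.24 did not pass (adjusted p = 0.15). The CD40 effect differed between tumours by 1.23 ± 0.33 (adjusted p = 0.020 by the interaction term), and this was not called without control isotype replicate 1, B2m-null CD40 replicate 1 or control CD40 mouse 1, with values between 0.91 and 1.67 over all the pools or mice left out. Under isotype Cfb was also lower in macrophages of B2m-null than of control tumours, by −0.79 ± 0.20 (edgeR adjusted p = 0.025). That call was lost without control isotype replicate 1 (−0.71) and without B2m-null isotype replicate 1 or 2 (−0.91 and −0.69).

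The C1q chains moved less. In control tumours C1qc was 1357, 1714, 1768, 1875 and 1949 CPM under isotype and 1235 and 1702 under CD40. In B2m-null tumours it was 1070.0, 1162, 1239.7, 1453 and 1583 CPM under isotype and 1350.5, 1429, 1856 and 1922 under CD40. The groups overlapped in both kinds of tumour. In the fit for B2m-null tumours all 3 chains rose with CD40, C1qa by 0.53 ± 0.15, C1qb by 0.65 ± 0.16 and C1qc by 0.55 ± 0.16 (edgeR adjusted p = 0.013, 0.0063 and 0.013). These rises depend on scaling: with each library's total alone in place of TMM, an alternative chosen after seeing the data, the median of all genes moved from −0.01 to −0.22 and the chains to 0.30 (adjusted p = 0.090), 0.43 (0.028) and 0.33 (0.075). All 3 calls were also lost without B2m-null isotype replicate 1 and without B2m-null CD40 replicate 2 (values of 0.27 to 0.53). In control tumours the chains' changes were between −0.19 and −0.01, and none passed. Under isotype the chains had lower means in B2m-null than in control tumours, with overlapping mice, and none was called. The means were 1797 against 2293 CPM for C1qa, 1944 against 2584 for C1qb and 1302 against 1733 for C1qc.

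Cfp was 215, 253, 275, 315 and 361 CPM in macrophages of B2m-null tumours under isotype and 297, 310.3, 319.9 and 357 under CD40, which overlapped. Its rise of 0.40 ± 0.12 in that contrast (adjusted p = 0.018, edgeR) fell to 0.18 with an adjusted p of 0.27 under library-total scaling, and the call was lost without B2m-null isotype replicate 1 or either B2m-null CD40 pool (0.30 to 0.42). Under CD40, Cfp was higher in B2m-null than in control tumours (202 and 206 CPM), by 0.67 ± 0.16 (adjusted p = 0.015), and the mice did not overlap, but the call was lost without either B2m-null CD40 pool or either control CD40 mouse (0.63 to 0.71). C4b in macrophages had no called change between groups. It was 14.0 to 29.8 CPM in control isotype mice, 29.0 and 42.1 in control CD40, 23.9 to 116 in B2m-null isotype and 22.9 to 39.9 in B2m-null CD40.

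C3ar1 was 442, 450.5, 463, 485 and 511 CPM in control isotype macrophages and 291 and 364 in control CD40, with no overlap, and fell by 0.39 ± 0.11 on the log2 scale (adjusted p = 0.017). That call was lost without control isotype replicate 1 (−0.40, edgeR adjusted p = 0.079) and without control CD40 mouse 2 (−0.28). In B2m-null tumours C3ar1 was 411, 431, 466, 481 and 506 CPM under isotype and 336, 353, 355 and 412 under CD40, which overlapped in 1 mouse. Its change there was −0.13 ± 0.09 with TMM (adjusted p = 0.29) and −0.34 with library totals (adjusted p = 0.0063), so whether it counts as lower rests on the scaling. C5ar1 behaved likewise, at −0.14 ± 0.08 (adjusted p = 0.17) and −0.36 (0.0041) in B2m-null tumours, and at −0.21 ± 0.10 (0.11) and −0.35 (0.027) in control tumours.

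C5ar1 differed by tumour kind. Under isotype it was 261, 269.7, 281, 293 and 303 CPM in control tumours and 314, 360.3, 391, 393 and 406 in B2m-null tumours. Under CD40 it was 199 and 244 in control tumours and 279, 281, 292 and 309 in B2m-null tumours. The B2m-null mice were above all control mice under either antibody, by 0.34 ± 0.07 under isotype (edgeR adjusted p = 0.0099) and 0.41 ± 0.10 under CD40 (adjusted p = 0.016). Without control isotype replicate 1 the isotype difference was 0.32 (edgeR adjusted p = 0.21), without B2m-null isotype replicate 1 it was also 0.32 (0.10), and neither was called. Under CD40 the call was lost without control CD40 mouse 2 (adjusted p = 0.19), control CD40 mouse 1 (0.055) or B2m-null CD40 replicate 2 (0.069), and when thinned to 2000 UMIs (0.34, adjusted p = 0.068). With lanes as units, both C5ar1 calls in macrophages were lost (0.36 and 0.44), as were those of C3ar1 for CD40 in control tumours (−0.44), C1qa and C1qc for CD40 in B2m-null tumours (0.49 and 0.50) and Cfp between tumour kinds under CD40 (0.64), with adjusted p-values of 0.056 to 0.11.

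**Figure D2:**
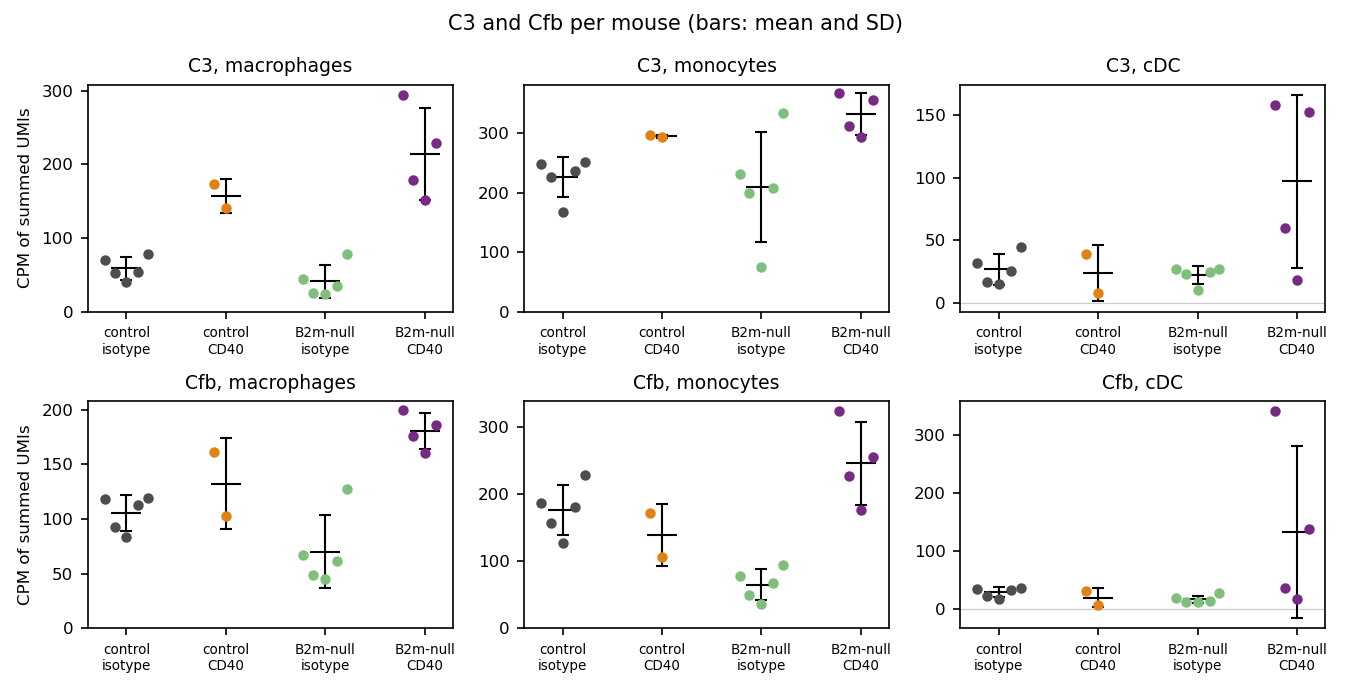
C3 and Cfb per mouse (points) in macrophages, monocytes and dendritic cells of the 4 groups, in CPM on linear axes, with bars for the mean and SD. In macrophages every CD40 mouse is above every isotype mouse for C3 in both kinds of tumour, and for Cfb in B2m-null tumours, where isotype mice reach 127 and CD40 mice start at 161.

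Over all members, 2 of the 9 members were called in macrophages for CD40 in control tumours, where 23.5% of the 12178 genes tested were called, and 6 of 9 in B2m-null tumours, all higher, where 32.6% of genes were called in either direction and 16.4% as higher. With library totals the members' calls in B2m-null tumours became 3 higher and 2 lower, while those of all genes went from 50.4% higher to 19.0% higher. The tumour kinds differed for 2 of 9 members under isotype (8.28% of genes) and 2 of 9 under CD40 (11.3%), and the CD40 effects differed for 1 of 9 (16.1%). The members' median log2 change was −0.09 in control and 0.53 in B2m-null tumours, against −0.0046 and −0.01 for all genes. The contrasts share mice: both tumour-kind comparisons use groups that enter the CD40 comparisons.

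The macrophages of the groups were not made of the same clusters. Cluster 7, led by H2-M2, held 41.2% of control CD40 macrophages, 9.75% in B2m-null CD40, 3.12% in control isotype and 1.23% in B2m-null isotype. Cluster 1 (led by Mmp12) held most in B2m-null CD40, with 26.5%. Cluster 2 (led by Cd209f, with Lyve1 and Cd163) held 23.8% in both CD40 groups, 17.1% in B2m-null isotype and 10.2% in control isotype. Macrophages with at least 2 UMIs of Lyve1 or Cd163 instead had a smaller median share under CD40. It was 2.22% against 4.89% in control and 6.26% against 14.2% in B2m-null tumours. At resolution 2 a cluster led by Cd209f was also smaller (1.16% against 4.03% and 2.74% against 8.4% of all cells). Another, led by Ltc4s, was larger (7.83% against 0.725% and 5.34% against 0.793%). Whether cluster 2 held like cells under both antibodies was not tested. Cluster 6 (led by Fcrls) led B2m-null isotype with 24.9%, and cluster 5 (led by Lipg) led control isotype with 20.3%. The mean of C3 was higher under CD40 in each of the 8 macrophage clusters in both kinds of tumour, but mice overlapped in clusters 4, 5, 16 and 20 of B2m-null tumours (4 of 8) and in 5, 16 and 20 of control tumours (3 of 8). In cluster 2, C3 was 28.3 to 76.7 CPM in B2m-null isotype and 303 to 813 in B2m-null CD40 mice, and 43.5 to 92.6 and 166 to 292 in control tumours. In cluster 7 its means were 70.1 and 392 CPM in B2m-null tumours, and in cluster 1 they were 25.8 and 131, again with no overlap of mice. In cluster 7 this compared 2 isotype mice with 4 CD40 mice, and in cluster 1 it compared 4 with 4. Clusters 16 and 20 of B2m-null tumours had 3 isotype mice each. Cfb in cluster 2 was 122 to 211 CPM under isotype and 326 to 426 under CD40 in B2m-null tumours, against 143 to 278 and 166 to 220.3 in control tumours. In cluster 1 Cfb was higher under CD40 in both kinds of tumour, with means of 18.5 and 97.5 CPM in B2m-null and 49.7 and 80.8 in control tumours, and no overlap of mice in either.

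Among macrophage clusters, C4b had its highest level in 1, with lower levels in the others. In cluster 2 its means were 98.1 CPM in control isotype, 134 in control CD40, 135 in B2m-null isotype and 123 in B2m-null CD40, and in no other macrophage cluster and group did the mean pass 27.8. Cluster 11, which stayed unnamed because its scores for monocyte and macrophage markers were both low, was led by Ly6i, Gpr84 and Nos2 and had Cfb among its 10 leading genes. It made up 12.4% of the cells of the B2m-null CD40 lanes and 0.246% to 2.13% in the other groups. C3 was 493 ± 92.9 CPM and Cfb 619 ± 112 there in B2m-null CD40 mice (SD, n = 4). In the same cluster C3 had means of 331 CPM in control isotype and 363 in control CD40 and was 369 in the 1 B2m-null isotype mouse with a value, and Cfb was 324, 356 and 195. Joined to the macrophages, an alternative chosen after seeing the data, this cluster left the CD40 calls of C3 and Cfb in B2m-null tumours in place, while C1qa (0.40, adjusted p = 0.076) and C1qc (0.41, adjusted p = 0.086) were no longer called. The Cfb difference between tumour kinds under isotype was not called either (−0.80, edgeR adjusted p = 0.066).

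**Figure D3:**
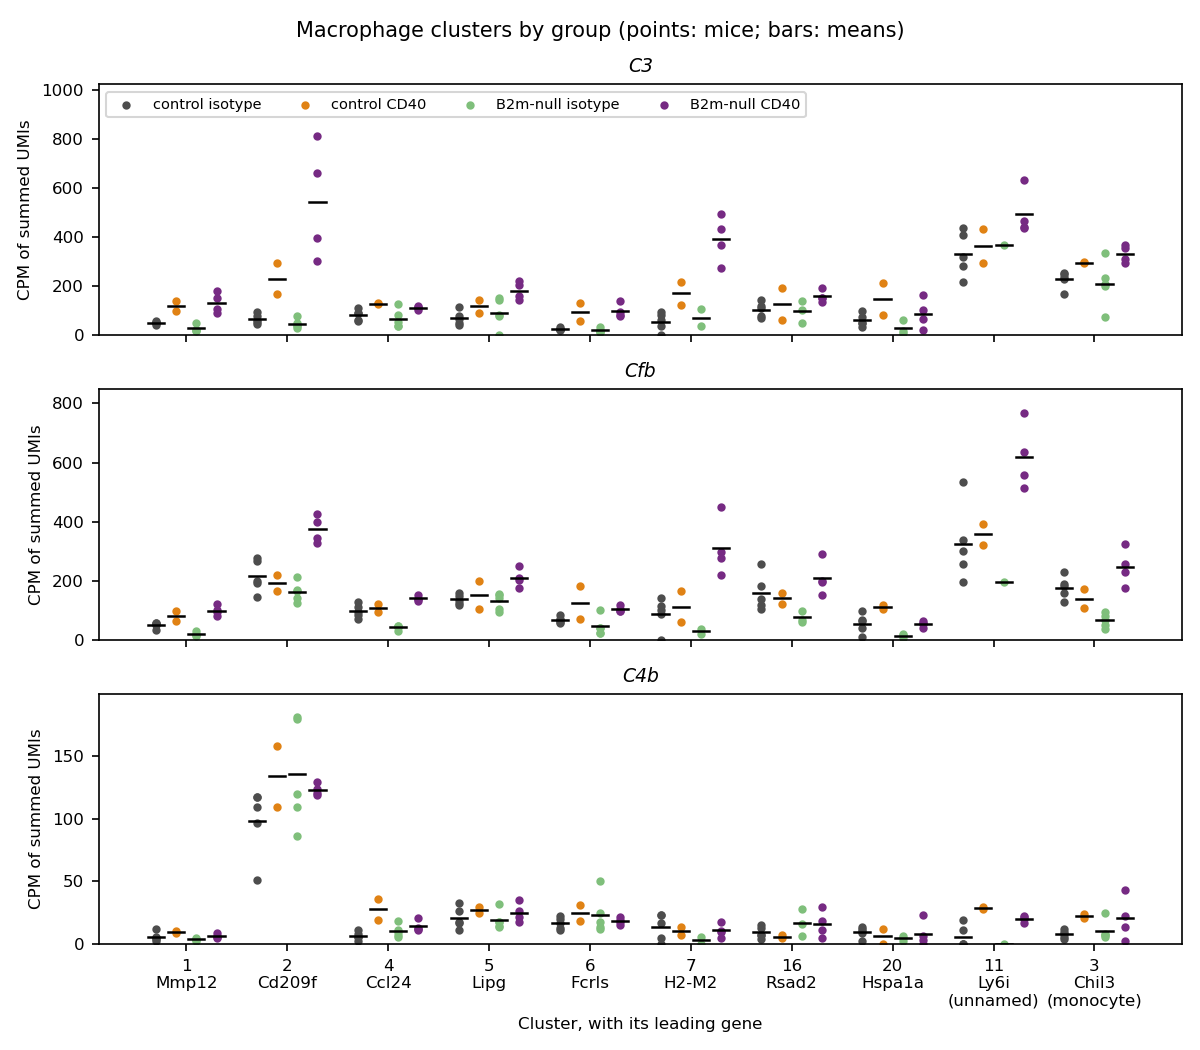
C3, Cfb and C4b per mouse (points, with bars for means) in the 8 macrophage clusters, the unnamed cluster 11 and the monocyte cluster 3, by group, in CPM on linear axes. C4b stands out in cluster 2 in all 4 groups, with means of 98.1 to 135, and C3 in cluster 2 of B2m-null CD40 mice reaches 813.

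Fibroblast transcripts in macrophages were measured because fibroblasts held the most C3, C4b and Cfb. The 7 fibroblast markers, none of them at 0, summed to 5.73 to 15.7 CPM in control isotype macrophages, 10.9 to 13.3 in control CD40, 4.75 to 32.2 in B2m-null isotype and 6.96 to 24.5 in B2m-null CD40, against 19514 to 51718 in fibroblasts. There were 1.32 to 6.65 C3 counts per 100 fibroblast marker counts in fibroblasts and 139 to 2576 in macrophages. The 9 monocyte markers summed to a median of 1612 CPM in control isotype macrophages, 622 in control CD40, 2178 in B2m-null isotype and 973 in B2m-null CD40, and the 7 neutrophil markers to 33.1, 70.8, 37.1 and 67.0. The 9 T cell markers summed to 14.8 to 38.8 CPM in control isotype, 51.1 to 73.8 in control CD40, 15.4 to 45.4 in B2m-null isotype and 38.2 to 60.3 in B2m-null CD40 macrophages. The 7 melanoma markers summed to 91.3 to 119, 88.8 to 99.5, 95.3 to 125 and 55.5 to 68.9 CPM in the same order, and were lowest in B2m-null CD40. Their part in the macrophage results was not tested.

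In monocytes, Cfb carried the clearest difference. It was 128, 157, 180.3, 187 and 228 CPM in control isotype mice, 106 and 171 in control CD40, 35.9, 49.8, 66.8, 78.6 and 94.2 in B2m-null isotype and 176, 227, 254 and 324 in B2m-null CD40. The B2m-null isotype mice were below every other mouse. Cfb rose with CD40 by 1.68 ± 0.22 in B2m-null tumours (3.21-fold, edgeR adjusted p = 5.0e-06) and not in control tumours (−0.27 ± 0.26, adjusted p = 0.66), the effects differed by 1.95 ± 0.34 (adjusted p = 0.00044), and under isotype Cfb was 2.35-fold lower in B2m-null tumours (−1.23 ± 0.20, adjusted p = 0.00026). These 3 calls held under every pool or mouse left out.

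C1q in monocytes was lower in B2m-null tumours under isotype. C1qc was 278, 341, 362, 447 and 499.5 CPM in control isotype mice and 74.7, 138, 145, 209 and 248 in B2m-null isotype, with no overlap, while C1qa (506 to 756 against 167 to 488) did not overlap either and C1qb (636 to 1148 against 274 to 621) was likewise apart. The log2 differences were −1.27 ± 0.18 for C1qc, −1.23 ± 0.21 for C1qa and −1.03 ± 0.17 for C1qb (edgeR adjusted p = 9.2e-05, 0.00043 and 0.00028). With clusters at resolution 2 none of the 3 was called (−0.90, −0.87 and −0.49, adjusted p = 0.076, 0.10 and 0.39). Under CD40 in B2m-null tumours C1qb and C1qc rose by 0.62 ± 0.18 and 0.76 ± 0.21 (adjusted p = 0.021 and 0.016), calls lost without B2m-null isotype replicate 2 and without B2m-null CD40 replicate 2 (C1qc 0.43 and 0.30), and at resolution 2 (C1qb −0.07, C1qc 0.08). Both calls were also lost with lanes as units (C1qb 0.71, C1qc 0.71, adjusted p = 0.066 and 0.088) and with a stricter cell filter (0.52 and 0.69, adjusted p = 0.0998 and 0.070), and that of C1qb when thinned to 2000 UMIs (0.41, adjusted p = 0.30). Without those replicates C1qb was at 0.52 and 0.37, and with library totals it was at 0.49 (adjusted p = 0.054). The CD40 effect on C1qc differed between the tumour kinds by 1.12 ± 0.32 (adjusted p = 0.027), and that call was lost without B2m-null isotype replicate 2, B2m-null CD40 replicate 2, control CD40 lane 1 or either control CD40 mouse (0.66 to 1.26). It was also lost at resolution 2 (0.42, adjusted p = 0.74), thinned to 2000 UMIs per cell (0.71, adjusted p = 0.31) and with lanes in place of mice as units (1.07, adjusted p = 0.18).

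**Figure D4:**
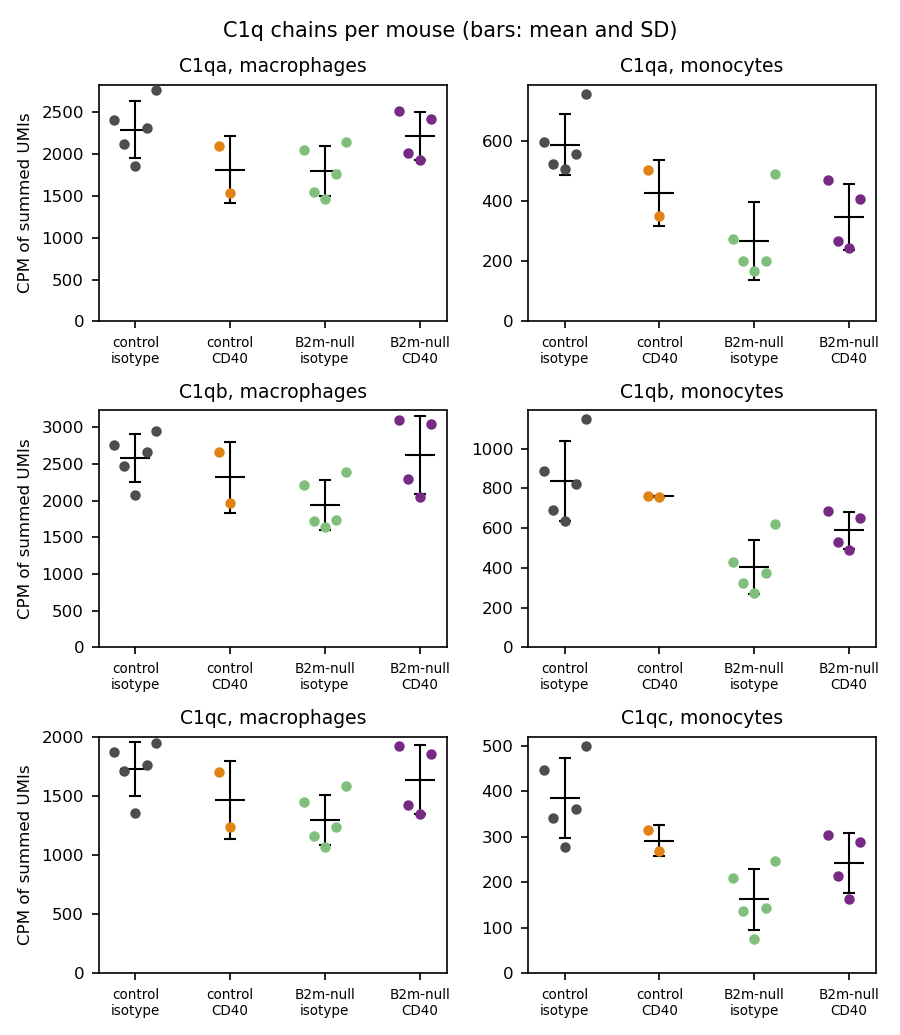
C1qa, C1qb and C1qc per mouse (points) in macrophages and monocytes of the 4 groups, in CPM on linear axes from 0, with bars for the mean and SD. In monocytes the 5 B2m-null isotype mice lie below the 5 control isotype mice for each chain, while in macrophages the groups overlap.

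Of the other members in monocytes, C4b rose with CD40 in B2m-null tumours by 1.52 ± 0.51 (adjusted p = 0.043, edgeR) from 6.17, 7.02, 7.18, 8.35 and 24.9 CPM to 2.80, 14.1, 22.4 and 42.8, which overlapped, and the call was lost without B2m-null isotype replicate 1, either B2m-null CD40 pool or control CD40 lane 2 (1.24 to 2.14). These C4b levels rest on few counts, 20 over all B2m-null isotype mice and 25 over all B2m-null CD40 mice. Cfp was higher under isotype in B2m-null tumours (224 to 316 against 127 to 228 CPM) by 0.56 ± 0.15 (adjusted p = 0.038), a call lost without control isotype replicate 1, either B2m-null isotype pool or either control CD40 mouse (0.36 to 0.62). That Cfp call was also lost with the replicate block (0.54, adjusted p = 0.0501), with lanes as units (0.39, 0.53), thinned (0.48, 0.25), with a stricter cell filter (0.57, 0.086) and at resolution 2 (0.47, 0.20). C3 had no called change. In control tumours it was 168 to 251 CPM under isotype and 294 and 297 under CD40, with no overlap (0.42 ± 0.21, adjusted p = 0.34, edgeR). In B2m-null tumours it was 74.7 to 334 and 294 to 367 CPM, which overlapped (0.50 ± 0.18, adjusted p = 0.055, edgeR). In counts, 4 of 9 members were called for CD40 in B2m-null tumours (14.8% of 6781 genes), 5 of 9 between tumour kinds under isotype (2.85%) and 2 of 9 for the difference of effects (7.05%). None was called by edgeR for CD40 in control tumours (4.0% of genes) or between tumour kinds under CD40 (3.55%), with 2 and 1 at an unadjusted p under 0.05, and DESeq2 also called none. With library-total scaling, chosen after seeing the data, 4 members were also called for CD40 in B2m-null tumours, but C1qb (0.49) and C4b (1.41) lost their calls (adjusted p = 0.054 and 0.060), while the receptors C3ar1 (−0.76) and C5ar1 (−0.79) were called as lower (adjusted p = 0.034 and 0.024, edgeR). With TMM scaling they were −0.64 ± 0.24 and −0.66 ± 0.23 (adjusted p = 0.073 and 0.052, edgeR), not called. The summed macrophage markers in monocytes had medians of 4012 CPM in control isotype, 2505 in control CD40, 4645 in B2m-null isotype and 2344 in B2m-null CD40. The 7 neutrophil markers, 1 of them at 0, were 85.6 to 912 CPM in B2m-null CD40 against 42.2 to 91.9 in the other groups. The 7 melanoma markers were 41.8 to 125 CPM in B2m-null isotype and 18.3 to 28.3 in B2m-null CD40 monocytes, with no overlap, and 58.3 to 89.4 in control tumours. The 9 T cell markers had medians of 19.2 and 74.5 CPM in control isotype and control CD40 and 8.41 and 42.1 in B2m-null isotype and B2m-null CD40. The 7 fibroblast markers had medians of 6.74, 11.2, 25.1 and 11.5 CPM in the same order, and the 7 endothelial markers 110, 42.7, 68.8 and 33.5. The part of these cells in the monocyte results was not tested. The CD40 groups held 51 to 187 monocytes per mouse, B2m-null isotype mice 32 to 518 and control isotype mice 253 to 769.

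In dendritic cells, tested as cDC1, cDC2 and mature dendritic cells together, C3 was 10.1, 23.3, 24.6, 26.7 and 27.2 CPM in B2m-null isotype mice and 18.1, 59.8, 152 and 158 in B2m-null CD40. Cfb was 11.9, 12.5, 13.8, 19.7 and 26.7 CPM and 16.6, 36.2, 138 and 340.3 in the same groups. Both sets overlapped through 1 CD40 mouse. C3 rose by 2.05 ± 0.48 (adjusted p = 0.012) and Cfb by 2.90 ± 0.57 (7.49-fold, adjusted p = 0.0044, edgeR), while the receptors fell, C3ar1 with a change of −1.77 ± 0.46 (adjusted p = 0.020) and C5ar1 with −1.57 ± 0.48 (adjusted p = 0.041). Without B2m-null CD40 replicate 1 the C3 value was 1.04 and the Cfb value 0.97, neither called (adjusted p = 0.24 and 0.20), and C3 was also not called without B2m-null isotype replicate 1 (2.13, adjusted p = 0.060). The C3ar1 call was lost without B2m-null isotype replicate 1 or B2m-null CD40 replicate 2 (−1.59 and −1.19), and the C5ar1 call without any of those 3 pools (−0.96 to −1.64). Thinned to 2000 UMIs per cell, neither receptor was called (C3ar1 −0.96, adjusted p = 0.36, and C5ar1 −1.31, adjusted p = 0.26). With lanes as units C3 (1.81, adjusted p = 0.0502), C3ar1 (−1.43, 0.067) and C5ar1 (−1.23, 0.12) were not called.

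These were 4 of 8 members tested, against 10.2% of 8812 genes; C4b was too low to test. The mature dendritic cells carried the highest values, with Cfb at 281 and 472 CPM in the 2 B2m-null CD40 mice that had at least 20 such cells, against 9.25 to 48.8 in the mice of the other groups. C3 there was 201 and 239 against 5.42 to 56.0, and in cDC2 C3 was 24.6, 103 and 139 CPM in 3 B2m-null CD40 mice against 0 to 58.1. No member was called by edgeR for CD40 in control tumours (2.59% of genes), between tumour kinds under isotype (1.75%) or under CD40 (0.59%), or for the difference of effects (3.8%), with 1, 3, 3 and 2 at an unadjusted p under 0.05, and DESeq2 called 0, 0, 0 and 1. Macrophage markers in dendritic cells summed to a median of 1137 CPM in control isotype, 605 in control CD40, 1805 in B2m-null isotype and 566 in B2m-null CD40. In the same order T cell markers had medians of 518, 768, 339 and 492 CPM, reaching 1112 in 1 B2m-null CD40 mouse. Melanoma markers were 25.9 to 57.5 CPM in B2m-null isotype and 9.96 to 15.2 in B2m-null CD40 dendritic cells, with no overlap, and 24.2 to 41.5 in control tumours. Fibroblast markers had medians of 6.38, 11.4, 7.16 and 11.6 CPM, with Lum and Pdgfrb at 0, and endothelial markers 53.3, 21.0, 50.1 and 60.6, with Cldn5 at 0. The part of these cells in the dendritic cell results was not tested, and the CD40 mice held 44 to 135 dendritic cells each.

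In fibroblasts, with 2 lanes per group and no test, Cfb was 598 and 639.7 CPM in B2m-null CD40 and 279 to 356 in the other 6 lanes. For control CD40 the 2 lanes were technical runs of a single pool. C3 was 1769.5 and 1942 CPM against 680.3 to 1447, and C4b was highest in the control CD40 lanes, 264 and 312 against 122 to 269.8, which overlapped.

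Macrophages were also divided by genes outside complement: a cell counted as gated with at least 2 UMIs of the gate gene or genes, and both sides of a gate were compared within mice. Lyve1 and Cd163 are known to mark perivascular-type resident macrophages, though where the gated cells lay was not measured. C4b separated the Lyve1 or Cd163 gate most sharply. It was 129.8 ± 49.0 CPM inside and 23.8 ± 17.0 outside the gate (SD, n = 16), higher inside in 16 of 16 mice, a difference of 2.59 ± 0.11 on the log2 scale (6.01-fold, edgeR adjusted p = 1.1e-17). Cfb (191 ± 81.4 against 109 ± 50.5 CPM, 0.86 ± 0.09), Cfp (423 ± 96.5 against 256 ± 48.9, 0.69 ± 0.05) and C1qa (2969 ± 546 against 1968 ± 396, 0.56 ± 0.06) were each higher inside in 16 of 16 mice, and C5ar1 by 0.36 ± 0.06 in 16 of 16. C3ar1 was slightly lower inside (−0.15 ± 0.05). C3 was 167 ± 209 CPM inside and 101 ± 73.4 outside, higher inside in 9 of 16 mice, and was not called. In this gate 8 of 9 members were called, 7 of them higher, where 39.9% of genes were called and 19.8% as higher.

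The gate for Mmp12, an elastase of matrix-degrading macrophages, showed the reverse for C4b, at 13.9 ± 11.1 CPM inside and 42.2 ± 24.7 outside (−1.53 ± 0.11), for Cfb (71.1 ± 32.4 and 139 ± 60.4, −0.85 ± 0.05) and for C1qa (−0.64 ± 0.06), each lower in 16 of 16 mice. There 8 of 9 members were called, all lower, where 55.7% of genes were called and 29.8% as lower. Arginase (Arg1) cells were lower in the C1q chains (−0.49 ± 0.04 for C1qa, 16 of 16 mice) and higher in C3ar1 (0.41 ± 0.04, 14 of 16 mice), with 7 of 9 members called (46.8% of genes). Vcam1 cells were higher in C1qa, C1qb and C1qc, by 0.56 ± 0.06, 0.45 ± 0.05 and 0.61 ± 0.05, and lower in C3ar1 by −0.38 ± 0.05, with 5 of 9 called (46.5%).

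C3 was called as higher in 3 gates. In the H2-M2 gate, an MHC class I-like gene, C3 was 238 ± 60.2 CPM inside and 147 ± 61.1 outside in 6 mice (0.83 ± 0.09), Cfb was 223 ± 106 and 141 ± 39.0 (0.68 ± 0.10), both higher in 6 of 6, while C4b (−1.89 ± 0.20) and C5ar1 (−0.76 ± 0.09) were lower in 6 of 6. The 6 mice with at least 20 gated cells were 3 of B2m-null CD40, 2 of control CD40 and 1 of control isotype, with none of B2m-null isotype. In this gate 5 of 9 members were called, where 15.3% of genes were. Thinned to 2000 UMIs per cell, C3 (0.71, adjusted p = 0.089), Cfb (0.37, 0.71) and C4b (−1.18, 0.55) were not called in that gate. In the gate for Nos2, the inducible nitric oxide synthase, C3 was higher by 0.50 ± 0.07 in 12 of 13 mice and C5ar1 lower by −0.55 ± 0.06 in 13 of 13, with 8 of 9 members called (43.9%). Of the 5 B2m-null isotype mice only 2 had enough gated cells to enter. Cfb was called as higher there (0.22 ± 0.06), in 6 of 13 mice by CPM, and not with library totals (0.06, adjusted p = 0.45) or with gates of 1 or 3 UMIs (0.07 and 0.14, adjusted p = 0.35 and 0.15), and thinned to 2000 UMIs its direction turned (−0.12, adjusted p = 0.48). In the gate for interferon-induced genes (Ifit1, Ifit2, Ifit3 and Rsad2) Cfb was higher by 0.55 ± 0.09 in 13 of 16 mice, C3 by 0.35 ± 0.08 in 11 of 16 (0.28 and not called once thinned), and 4 of 9 members were called (30.1%).

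Over all mice, median UMIs inside and outside the gate were 5013 and 4214 for Lyve1 or Cd163, 5397 and 3756 for Mmp12, 8599 and 4178 for H2-M2 and 7372 and 3447 for Vcam1. Within mice that entered the tests, gated cells had the lower median in 4 of 16 for Lyve1 or Cd163 (3 of them B2m-null CD40) and in 4 of 16 for Arg1, and in none for the other 5 gates. Library-total scaling kept the direction of the members called in these 7 gates, losing the calls of C5ar1 in the Arg1 gate and Cfb in the Nos2 gate, while it moved the share of all called genes that were higher from 46.4% to 23.5% for Mmp12, from 54.9% to 23.9% for H2-M2, from 49.2% to 24.4% for Arg1, from 50.9% to 23.5% for Nos2 and from 49.8% to 28.9% for interferon.

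**Figure D5:**
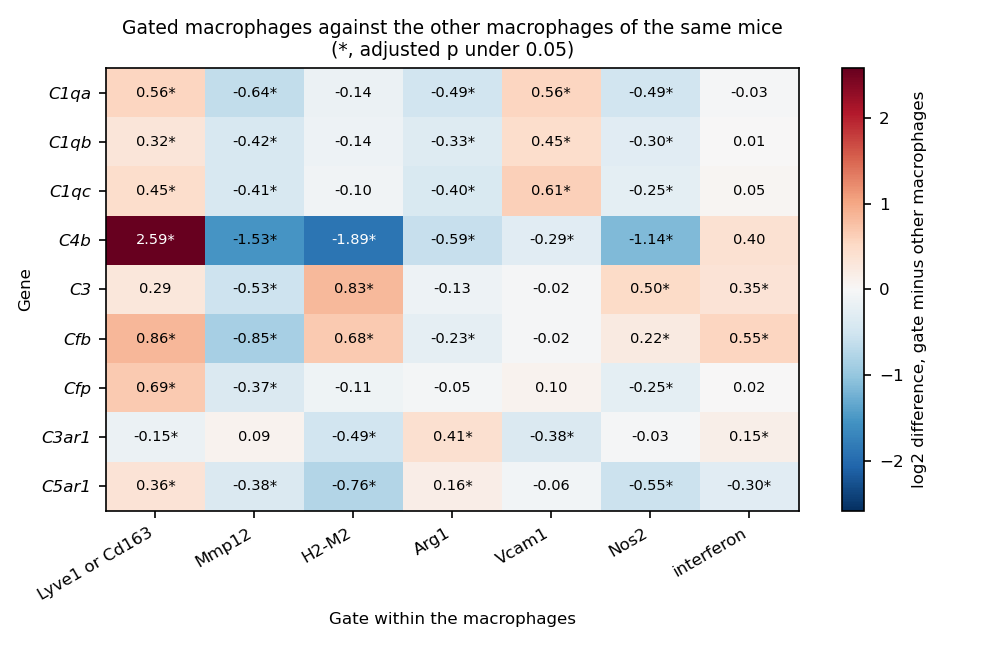
Log2 difference of each member between gated macrophages and other macrophages of the same mice, for 7 gates; rows are genes, columns gates, and a star marks a call at an adjusted p under 0.05. C4b spans from 2.59 in the Lyve1 or Cd163 gate to −1.89 in the H2-M2 gate.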

How the data were processed

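The submitters' processing notes name Cell Ranger 3.0.0, bcl2fastq 2.20.0.422 and mm10. The deposited matrices hold raw UMI counts per gene and barcode, per the file headers, with hashtag counts in the same files. Barcodes under 500 gene counts were absent. A hashtag stood for 1 mouse; some files held fewer hashtags than the 3 that the labels give for a pool. Kept barcodes had 200 genes or more and no more than 10% mitochondrial counts, and hashtag doublets (over 2.5 robust SD on a further hashtag) were removed, while doublets within a mouse were not. Clusters came from scanpy 1.11.5 and leidenalg 0.10.2 at resolution 1. Thresholds for naming clusters were revised with the data in view.

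Counts were summed per mouse and class (at least 20 cells) and tested with edgeR 4.0.16 in R 4.3.3 (TMM scaling, filterByExpr, quasi-likelihood test, Benjamini-Hochberg adjustment over all genes, called under 0.05), all 16 mice in 1 fit. Gates used the mouse as a block. DESeq2 1.42.0 was an alternative. CPM values use each library's total alone, so their ratios differ from TMM-scaled log2 changes. Counts were simulated for CD40 in B2m-null macrophages (12178 genes). Each gene was given the same dispersion (spread between mice beyond counting) of 0.05. The test called 100% of 4-fold and 81.0% of 2-fold rises. It called 92.6% of falls to 0.25 and 60.7% of falls to 0.5 of the level. Whether these rates hold for each member was not tested. Spread between mice differed by member: in B2m-null isotype macrophages C4b was 46.8 ± 39.1 CPM and C5ar1 373 ± 37.1 (SD, n = 5). The 9 members, all named, and the list of 46 other complement genes (genes named are from those called, at most 10 per comparison, and not every called gene is named) were chosen with earlier results of these data known. Some results for that list are not reported here. Promoter sequences are RefSeq's; genes C1qa, C4b and Cfb were not analysed there. Alternatives covered scaling, filters, depth, clusters, lanes as units, gate thresholds and left-out pools.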

Additional observations from a re-analysis of the deposited data

Results flagged for a closer look

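Among 81 groups of 4 or 5 mice examined for a mouse far from the others, 6 had one, where chance flags about 1 in 20. In 4 of the 6 it was mouse 2 of B2m-null isotype pool 1, which had 289 macrophages. Its C4b was 116 CPM in macrophages (next highest 37.1), 24.9 in monocytes (next 8.35) and 12.3 in dendritic cells (next 2.06), and its Cfb was 127 in macrophages (next 67.5). Over all 5 B2m-null isotype mice C4b had 20 counts in monocytes and 16 in dendritic cells, so its levels there rest on few counts. That mouse had the largest share of its macrophages in the Lyve1 or Cd163 gate, 21.8%. Mouse 2 of B2m-null isotype pool 2, not flagged for C4b or Cfb, had 20.4%. Whether the gate share bears on these levels was not tested. C3 was lowest, at 168 CPM, in monocytes of control isotype pool 2 mouse 1 (next 227), and at 10.1 in dendritic cells of B2m-null isotype pool 2 mouse 2 (next 23.3).

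The CD40 effect differed between B2m-null and control tumours, by the interaction term of edgeR's quasi-likelihood test, for Cfb in macrophages (1.23 on the log2 scale), Cfb in monocytes (1.95) and C1qc in monocytes (1.12). The C1qc call was lost at resolution 2 (0.42, adjusted p = 0.74) and when thinned (0.71, adjusted p = 0.31), and the Cfb call in macrophages without control isotype replicate 1, B2m-null CD40 replicate 1 or control CD40 mouse 1 (1.15, 1.17 and 0.91).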

How the results depend on the processing

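The members' calls moved with settings as follows, for results that answer a comparison: of 197 such values under alternatives other than leave-outs, 163 stayed within 1.5 times the reported count. In macrophages, the difference between tumour kinds under isotype (2 members called) became 4 without the low-count filter, 4 with DESeq2, 5 with the replicate block and 1 with the Nos2-led cluster joined. Under CD40 (2 called) it became 0 with lanes as units and 1 when thinned to 2000 UMIs. The difference of CD40 effects (1 called) became 2 without the filter, 2 with DESeq2 and 2 with clusters at resolution 2. In monocytes, CD40 in control tumours (0) became 1 without the filter, and CD40 in B2m-null tumours (4) became 8 without the filter, 2 with lanes, 2 when thinned and 1 with stricter cells. The isotype comparison (5) became 1 at resolution 2, and the difference of effects (2) became 4 without the filter, 1 with lanes, 1 when thinned and 1 at resolution 2. In dendritic cells, the counts without the filter were 1 for CD40 in control tumours, 2 and 1 between tumour kinds under isotype and CD40, and 2 for the difference of effects, all 0 with it. CD40 in B2m-null tumours (4) became 1 with lanes and 2 when thinned, and the difference of effects (0) became 1 with DESeq2, with the replicate block and with stricter cells. Library totals gave 8 members in place of 5 in the H2-M2 gate, where all genes called went from 1683 to 2474 of 10998. With DESeq2 they went from 1008 to 1109 of 12178 between tumour kinds under isotype in macrophages. For the difference of effects they went from 1965 to 1971 in macrophages and from 335 to 485 of 8812 in dendritic cells. For the other settings and the leave-outs, calls over all genes are not given here, so those member counts lack that comparison. With no replicate block, that is without the mouse as a term, the gates gave 2 for H2-M2, 4 for Arg1, 3 for Nos2 and 1 for interferon, in place of 5, 7, 8 and 4.

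Leaving out 1 pool, lane or mouse gave 0 to 3, 2 to 6, 0 to 4, 0 to 2 and 0 to 6 called members in macrophages for CD40 in control and then in B2m-null tumours, the tumour kinds under isotype and under CD40, and the difference of effects. In the same order the ranges were 0 to 0, 1 to 6, 4 to 5, 0 to 0 and 1 to 4 in monocytes and 0 to 0, 1 to 5, 0 to 1, 0 to 1 and 0 to 2 in dendritic cells. The gates ranged from 8 to 9 (Lyve1 or Cd163), 8 to 9 (Mmp12), 5 to 8 (H2-M2), 7 to 7 (Arg1), 4 to 6 (Vcam1), 7 to 8 (Nos2) and 4 to 6 (interferon). Where control CD40 kept 1 mouse, that mouse was assumed to vary like the other groups. Not run were H2-M2 without control isotype replicate 1 or either B2m-null isotype pool, and Nos2 without B2m-null isotype replicate 1.

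For single members, 64 calls were lost and 3 reversed among 604 values under other alternatives. The reversals were C1qb in monocytes for CD40 in B2m-null tumours at resolution 2 (−0.069), and, thinned, C4b in the Vcam1 gate (0.11) and Cfb in the Nos2 gate (−0.12). The cause was not tested. Deviations of same-numbered pools had r of 0.15 to 0.19 between the B2m-null groups and −0.16 to 0.084 between the others, with at most 2 pools a group and no pairing in the labels, and the replicate block moved the counts given above. In dendritic cells, where r was −0.16 between the isotype groups, the crossed replicate block, chosen after seeing the data, gave 1 call for the difference of effects. Control CD40, with 2 mice from 1 pool, limits every comparison that uses it.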

Other observations

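The other genes of the pathway are a list of 46 chosen with earlier results known. Serping1, the C1 inhibitor, was 1424 ± 568 CPM in fibroblasts (SD, n = 8 lanes, with the technical lanes of control CD40 counted separately). C1s1, a protease of the C1 complex, was 561 ± 174 there and C1ra, its partner, 177 ± 46.0, while Cd93 led in endothelial cells at 1155 ± 115 (n = 7). In macrophages 19 of the 46 could be tested. For CD40 in control tumours 5 were called by edgeR (23.5% of all genes), 3 higher and 2 lower, and in B2m-null tumours 8 (32.6%), 6 higher and 2 lower. C5ar2, the second C5a receptor, fell in both: its means were 9.76 and 4.43 CPM in control tumours (adjusted p = 0.0010) and 18.3 and 5.79 in B2m-null tumours (−1.40 ± 0.15, adjusted p = 1.5e-05). C1ra rose by 0.78 ± 0.23 and 1.07 ± 0.22 (adjusted p = 0.019 and 0.0016), at levels of 6.67 and 10.3 CPM in control tumours and 5.81 and 8.56 in B2m-null tumours. C1s1 was called in both contrasts at levels of at most 2.15 CPM in any mouse. C2 in control tumours and Serping1 in B2m-null tumours were called as higher at group means of at most 3.32 and 1.3 CPM. Itgb2, the beta chain of complement receptors 3 and 4, rose by 0.68 ± 0.11 in B2m-null tumours (adjusted p = 0.00031), from 177 to 245 CPM. Under isotype 4 of 19 were called between the tumour kinds (8.28% of genes), among them C5ar2, which was higher in B2m-null tumours (0.79 ± 0.13), and C1rl and Itgb2, which were lower.

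In the Lyve1 or Cd163 gate 15 of 17 tested genes of that list were called, 11 higher and 4 lower, where 39.9% of genes were called. They included the receptor of C3b Vsig4 (4.98 ± 0.28), the terminal component C6 (4.27 ± 0.24), the lectin Fcna (3.85 ± 0.14), the inhibitor Cd55 (3.23 ± 0.17) and C2 (2.70 ± 0.22). The H2-M2 gate went the other way for C6 (−3.23 ± 0.60), Cd55 (−2.83 ± 0.40) and Fcna (−1.54 ± 0.23). Itgax (2.14 ± 0.09) and C2 (1.11 ± 0.39) were higher there. For these genes adjusted p-values of edgeR's quasi-likelihood test ran from 5.1e-21 (Itgax) to 0.047 (C2). Macrophage group means of C2 were only 1.68 to 3.60 CPM, so its differences rest on low levels. H2-M2 cells were also deeper (medians of 8599 and 4178 UMIs), and thinned values for this list are not given here.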
